A study of Anthoceros agrestis with 2 samples.

Results

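The unplaced scaffolds C9 and C16 of the *Anthoceros agrestis* Oxford assembly (AnagrOXF.C9 and AnagrOXF.C16) were taken by name from all 3 cytosine reports and divided into 500 bp bins from position 1. They gave 246 bins (161 on C9 and 85 on C16) of 254745 bins in the assembly. Up to its last listed cytosine, C9 spanned 80358 bp with 26022 listed cytosines, and C16 spanned 42228 bp with 12846. *A. agrestis* is a hornwort, a land plant whose vegetative body is a haploid thallus. The plants were wild type thalli of the Oxford strain, 4 weeks old, grown under 1 condition, in 2 biological replicates with no other group. Enzymatic Methyl-seq (EM-seq) was applied to their genomic DNA, and the reports hold replicate 1, replicate 2 and the merged reads of both.

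In EM-seq, enzymes protect methylated cytosines and convert unprotected cytosines to uracil, so that a cytosine still read as C is counted as methylated. A cytosine that escapes conversion, or a read error, is counted in the same way. DNA that carries no methylation therefore still shows a low apparent level, the conversion background. Plants methylate cytosine in the contexts CG, CHG and CHH, in which H is A, C or T. Apparent levels on C9 and C16 are given below as a measure of that background. A level is the percentage of reads that were methylated, and levels of a group of sites are means over cytosines with at least 10 reads unless stated otherwise. The sources used here do not state the cellular compartment of either scaffold, and it was not tested.

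The strongest departures from a low level lay in 7 short clusters. They held all 26 cytosines with at least 100 reads and a level above 5%, and their sequences are shown because the single-site results below turn on them. The bases were read from the listed cytosines and their contexts, in the coordinates and on the plus strand of the Oxford assembly. Capitals mark the sites above 5% (C on the plus strand, G where the cytosine lies on the minus strand), and n marks a base known only to be A or T.
Cluster 1, C9:56857-56926: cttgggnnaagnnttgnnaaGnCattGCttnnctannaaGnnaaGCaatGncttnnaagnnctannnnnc
Cluster 2, C9:67008-67063: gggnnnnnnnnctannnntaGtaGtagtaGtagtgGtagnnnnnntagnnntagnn
Cluster 3, C9:79018-79064: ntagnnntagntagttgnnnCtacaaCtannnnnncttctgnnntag
Cluster 4, C16:12645-12685: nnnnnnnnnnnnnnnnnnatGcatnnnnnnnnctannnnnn
Cluster 5, C16:20170-20229: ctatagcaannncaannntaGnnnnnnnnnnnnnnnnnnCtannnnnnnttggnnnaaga
Cluster 6, C16:21737-21800: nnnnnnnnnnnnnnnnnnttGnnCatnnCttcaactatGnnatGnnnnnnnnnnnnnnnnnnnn
Cluster 7, C16:30498-30595: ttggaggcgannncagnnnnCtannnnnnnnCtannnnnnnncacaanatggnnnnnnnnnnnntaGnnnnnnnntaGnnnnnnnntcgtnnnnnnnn

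Both scaffolds were deep and AT-rich. GC content was 32.38% on C9 and 30.42% on C16, against 49.26% on the 6 chromosomes. The median depth per cytosine in the merged report was 811 reads on C9, with 399 in replicate 1 and 410.5 in replicate 2. On C16 it was 1350 reads, with 667 in replicate 1 and 696 in replicate 2. The chromosomes had a median of 9 reads, so that C9 was 90.11 times and C16 150 times as deep. Among the 63 unplaced scaffolds of at least 10 kb, C16 ranked 1st and C9 2nd. C7 ranked 3rd with 411 reads, and C64, the next, had 24. The pair held 5.88% of all calls of the merged report. The merged report had fewer calls than the sum of the replicates, by 1.312% on C9 and 1.022% on C16, against 0.3996% on C7 and 0.0131% on the chromosomes. Duplicates were removed after the reads were merged.

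Depth was not even along C9. No read covered 28.75% of its cytosines, against 4.873% on C16. Of the 161 bins of C9, 66 had a median under 10 reads and 86 had at least 500. Of the 85 bins of C16, 4 had a median under 10 reads and 79 had at least 500. The deepest bin of C9, at 17501-18000, had 2852 reads and a GC content of 57%, followed by 18001-18500 with 2771 reads and 15001-15500 with 2553 reads. The deepest bins of C16 were 16001-16500 with 1944 reads, 24501-25000 with 1866 reads and 28001-28500 with 1781 reads. The 3 shallowest bins, named by position among those at 0, covered positions 1 to 1500 on each scaffold. In all, 45 bins of C9 and 4 bins of C16 had a median of 0.

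A depth step was defined as a change of at least 1.5 times between the medians of the 4 bins on either side of a bin border, with 1 read added to both. On simulated depth the method placed a step up to 500 bp from its true position. The merged report had 17 steps, 16 on C9 and 1 on C16, and 14 occurred in both replicates. In 10 steps at least 1 side had 100 reads or more, and all 10 occurred in both replicates. The other 7 lay between medians under 100 reads. By log2 ratio the largest step was at C9 22501, where the 4 bins after it had a median of 0 reads and the 4 before it 1930. Both replicates had a median of 0 after it, and replicate 1 had 990.5 before it. At C16 2501 the 4 bins after had a median of 1431 reads and the 4 before 0. At C9 38001 the 4 bins after had a median of 0 reads and the 4 before 1175. At C9 29501, C9 11501 and C9 54001 the median was higher after the border, with 1090, 948.5 and 1362 reads against 0, 0 and 6 before it. The bin directly after a border could differ from these medians. The bin at C9 38001-38500 had 1133 reads, that at 11501-12000 had 4 and that at 54001-54500 had 137. Named borders can thus lie 500 bp from the change in depth. These 6 steps bounded stretches with almost no reads. The next 4 by log2 ratio, at C9 2001, 4001, 41501 and 43501, separated medians of 0 from medians of 6 or 4 reads. Steps with high medians on both sides included C9 17501 and C9 16001. At 17501 the medians were 2652 after and 1090 before, and at 16001 they were 1090 after and 2480 before. The medians of 1090 took in the bins at 16001, 16501 and 17001, with 2018, 161 and 5 reads. Both steps thus lay at or near bins with few reads. At C9 19501 the medians were 1490 after and 2652 before, and at C9 75501 they were 1506 after and 880.5 before.

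**Figure D1:**
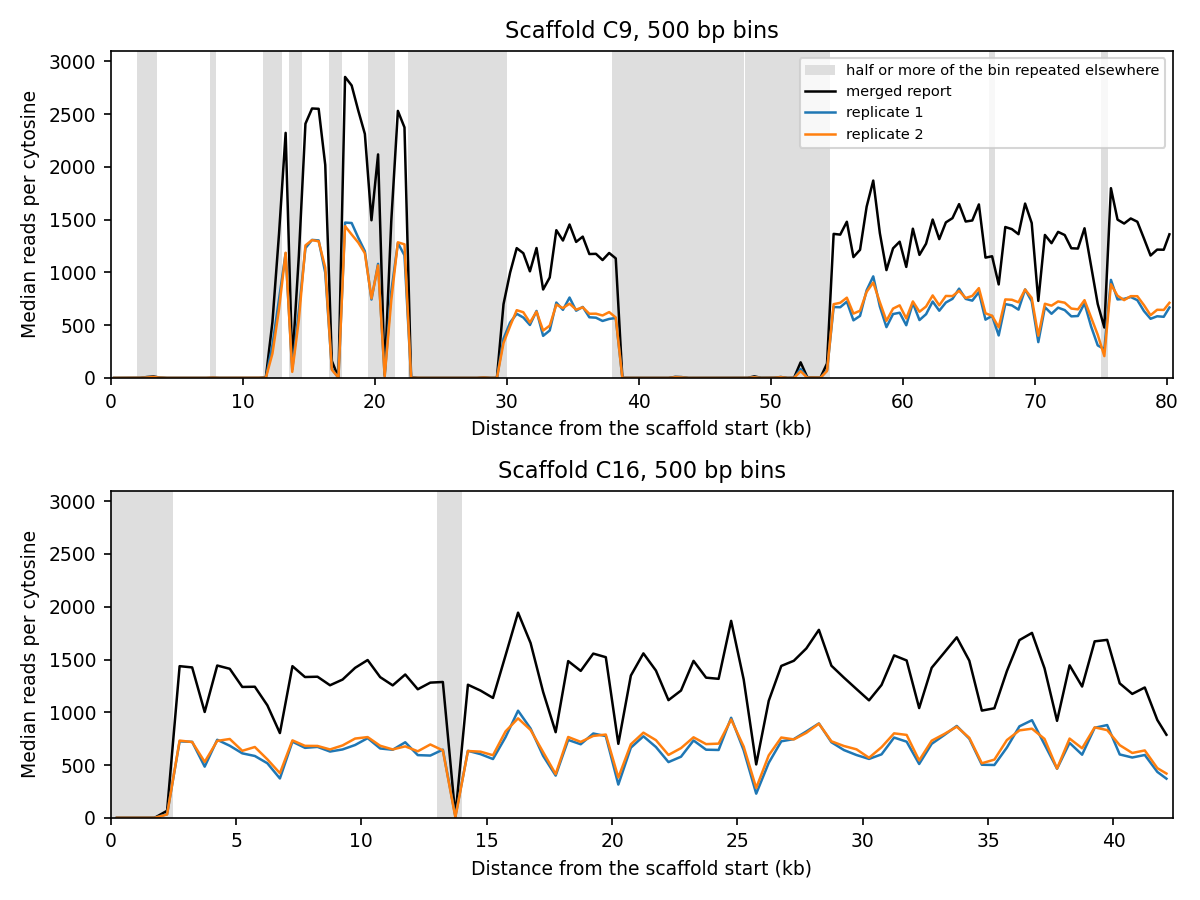
Median reads per cytosine in 500 bp bins (vertical axis) against distance from the scaffold start in kb (horizontal axis) for C9 and C16, in the merged report and in each replicate; grey marks bins of which at least 50% recurs elsewhere in the assembly. Both replicates fall to 0 over the same stretches, and C9 reaches its maximum of 2852 reads in the bin at 17501-18000.

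Many of the stretches with few reads coincided with repeated sequence. A stretch counted as repeated when its pattern of C, G and A-or-T recurred over at least 100 bases elsewhere on either strand. This held for 43.76% of C9 and 8.625% of C16. The longest block, C9 42872-47712, recurred on the unplaced scaffold C43 over 4841 bp, and C9 22444-25010 recurred on C127 over 2567 bp. Cytosines of C9 had a median of 2 reads in repeated stretches and 1314 outside them. On C16 the medians were 0 in repeated stretches and 1383 outside. Repeated stretches held 67.49% of the C9 cytosines and 99.85% of the C16 cytosines that had under 10 reads. Of the 66 bins of C9 under 10 reads, 53 held some repeated sequence. The others, at 1-1500, 4001-6000, 6501-7000 and 8501-11000, held none and had a median of 0. Outside repeated stretches 21.22% of the cytosines of C9 had no read. The part of mapping in these stretches was not tested.

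Among deep bins outside repeated stretches, GC-richer bins tended to be deeper. Over bins with no repeated base and at least 100 reads, depth and GC had a Pearson r of 0.5212 on C9 (55 bins, Spearman rho 0.4213). On C16 r was 0.561 (74 bins, rho 0.5241). Over all bins r was 0.2184 on C9 (161 bins, rho 0.1223) and 0.4492 on C16 (85 bins, rho 0.5495). The unrepeated bins at C9 9001-11000 had a GC content of 56% to 61.6% and a median of 0 reads. Bins share libraries and neighbouring bins share reads, so these are descriptions.

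Apparent methylation was low in each context and was no higher in CG or CHG than in CHH. In CG the merged level came to 0.1325% (0.1253% ± 0.01324, SD of n = 2 replicates, 3359 sites). The CHG level was 0.1262% (0.1277% ± 0.009992, 3656 sites). The CHH level was 0.1673% (0.1652% ± 0.001863, 20939 sites). Reads pooled over sites gave 0.1117% in CG (exact 95% binomial interval 0.1088 to 0.1147), 0.1152% in CHG (0.1123 to 0.1181) and 0.1458% in CHH (0.1444 to 0.1473). These intervals cover counting error only. Without the single sites above 5%, the mean levels were 0.1217%, 0.1246% and 0.1411%.

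Rates of pooled reads were compared within each replicate by a two-sided exact conditional binomial test, with Benjamini-Hochberg adjustment over 12 tests. The tests compare the reads of a library and not plants. Calls on the same read are not independent, which makes these p-values too small. With 1 difference from each of 2 replicates, the smallest two-sided exact permutation p is 0.5, so that no such test across plants could reach 0.05. The rate in CG was 0.7376 times that in CHH in replicate 1 (adjusted exact p = 9.65e-54) and 0.7892 times in replicate 2 (adjusted exact p = 6.59e-35). CHG stood at 0.7794 times CHH in replicate 1 (adjusted exact p = 5.54e-40) and 0.8012 times in replicate 2 (adjusted exact p = 5.84e-33). Without the sites above 5%, the merged ratios were 0.8693 for CG and 0.8971 for CHG. The pooled rates without those sites were 0.1051% in CG and 0.1242% in CHH on C9, and 0.1227% and 0.1337% on C16. Pooled reads give deep sites more weight, and the level moved with depth (below). The part of depth and position in these ratios was not tested. At CG, which is symmetric, 940 pairs of facing cytosines on C9 and 652 on C16 had at least 100 reads on both strands, and none was above 1% on both.

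In pooled reads C9 had the lower rate of the pair in both replicates. The mean level over all contexts was 0.1458% on C9 (0.1426% ± 0.01351, SD, n = 2) and 0.1733% on C16 (0.1717% ± 0.007202, SD, n = 2). The rate of C9 over that of C16 was 0.7804 in replicate 1 (adjusted exact p = 2.22e-87) and 0.8477 in replicate 2 (adjusted exact p = 4.71e-41). Without the sites above 5% the mean levels were 0.1311% on C9 and 0.1437% on C16, and the merged ratio of rates was 0.9127. The order of these means then differed between replicates, with 0.1252% on C9 and 0.1477% on C16 in replicate 1 but 0.1435% on C9 and 0.1413% on C16 in replicate 2. The pooled rate on the plus strand was 0.8688 times that on the minus strand in replicate 1 (adjusted exact p = 1.79e-29) and 0.8955 times in replicate 2 (adjusted exact p = 1.94e-19). Mean levels over sites were closer, at 0.1555% on the plus and 0.1599% on the minus strand. On C9 alone the direction turned in the merged report, with 0.152% on the plus and 0.1399% on the minus strand, and in replicate 2, with 0.1589% and 0.1456%, but not in replicate 1, with 0.1225% and 0.143%.

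The background was also set beside DNA elsewhere in the assembly. At CHH sites of 1 kb chromosome bins with CG and CHG levels below 5%, the level was 0.09921% (0.09879% ± 0.007626, SD, n = 2) over 8020450 sites with a median depth of 12 reads. For single replicates, chromosome sites needed at least 5 reads, against at least 10 on C9 and C16. The CHH rate of C9 and C16 was 1.543 times the rate of those bins in replicate 1 and 1.395 times in replicate 2 (adjusted exact p at most 3e-300 in each). Dropping the sites above 5% from C9 and C16 gave a merged ratio of 1.294. A minimum of 20 reads gave a merged ratio of 1.307, against 1.47 at a minimum of 10. Over all contexts, the rate of C9 and C16 was 0.2264 times that of C7 in replicate 1 and 0.2319 times in replicate 2 (adjusted exact p at most 3e-300 in each). C7 had levels of 1.857% in CG and 1.099% in CHG. At CHH alone, a comparison chosen after seeing the data, the direction turned. C9 and C16 were at 1.243 times the C7 rate in replicate 1 (exact p = 6.33e-86) and 1.212 times in replicate 2 (exact p = 1.26e-68). Depth differed between these parts, and on C9 and C16 the level itself moved with depth. It was 0.2809% at sites under 100 reads, 0.2147% from 100 to under 1000, 0.1464% from 1000 to under 2000 and 0.09444% at 2000 or more. Without the sites above 5% these levels were 0.1496%, 0.1942%, 0.1289% and 0.09444%, so that the high value under 100 reads rested on those sites, most of them with 1 methylated read. GC content differed as well, at 45.47% on C7 against 32.38% on C9 and 30.42% on C16. The part of depth and of GC content in the comparisons was not tested.

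Among the 16 trinucleotides, CTA had the highest level, at 0.2492% in the merged report (0.2471% in replicate 1 and 0.2488% in replicate 2). Without the sites above 5% it was 0.1527%, the highest in the merged report of the pair but not throughout. In replicate 1 CTT was at 0.1516% and CTA at 0.1508%, and on C16 the merged levels were 0.1662% for CTT, 0.1515% for CAT and 0.1462% for CTA. The other CHH trinucleotides ranged from CAC at 0.1235% to CAT at 0.1772%. Between them lay CCC at 0.1262%, CCA at 0.1394%, CTC at 0.1454%, CCT at 0.1513%, CAA at 0.1524% and CTT at 0.1637%. The CHG trinucleotides were CCG at 0.1158%, the lowest of the 16, CAG at 0.1254% and CTG at 0.1318%. In CG they were CGC at 0.1163%, CGA at 0.1315%, CGG at 0.1369% and CGT at 0.1385%. The replicates of CGG, at 0.1058% and 0.1404%, lay farther apart than CCG lay from CGT in the merged report, so that the order of these neighbours does not stand beyond the replicate spread. The base before the cytosine also went with the level. Without sites above 5% the level was 0.1542% after A, 0.1465% after G, 0.1212% after T and 0.1186% after C. At 10770 of the 27905 sites the base before was known only to be A or T, and their level was 0.1437%, so that the values after A and T cover part of such sites. Between replicates, the level after G varied from 0.1334% to 0.1643%, which spans the values after A.

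Of 27954 cytosines with at least 10 reads on C9 and C16, 49 had a level above 5% (0.1753%), 31 on C9 and 18 on C16. On the 6 chromosomes 17.2% of cytosines with at least 10 reads were above 5%. At CHH sites of the chromosome bins with CG and CHG below 5% the share was 1.2%, but at a median depth of 12 reads a single methylated read passes the limit there. None of 1868 such sites with at least 100 reads was above 5%. The count on C9 and C16 was 26 of 19973 CHH sites of that depth. So rare an event could be missed in 1868 sites, and no difference in share was tested. The 49 sites fell into 26 with at least 100 reads and 23 with fewer. Of the 26, 24 were above 5% in both replicates. The exceptions were C9 56896, at 5.951% in replicate 1 and 4.319% in replicate 2, and C9 79038, at 5.035% and 4.926%. Of the 23 shallower sites, 21 rested on 1 methylated read and 22 lay in repeated stretches. C9 22687, with 2 methylated of 33 reads, was the only one above 5% in both replicates, with 1 methylated read in each. Several of the 23 lay close together on the same strand, such as C9 29490 and 29494. Close sites can share reads, so these are not 23 independent observations. Of the 26 deeper sites, 4 lay in repeated stretches, all in cluster 2.

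All 26 deeper sites were CHH, whereas CHH made up 74.75% of all sites with at least 100 reads. By trinucleotide 11 were CTA, 6 CAT, 5 CTT, 3 CAA and 1 CCA, and 10 lay on the plus strand and 16 on the minus strand. Their local GC content, over 50 bp on either side, had a median of 22.77%, against 33.66% for all sites of that depth. Replicate 1 was higher than replicate 2 at 22 of the 26, with a largest difference of 6.55 percentage points. Sites of a cluster share reads, so these are not 26 independent observations.

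Cluster 7 on C16 held the highest levels. Position 30564 (minus strand) was methylated in 639 of 1036 reads, or 61.68% (exact 95% interval up to 64.65), with 63% in replicate 1 and 60.42% in replicate 2. Position 30529 (plus strand) stood at 59.04%, with 62.45% and 55.94%. Position 30575 was at 40.75%, with 44.37% and 37.82%, and position 30518 at 34.95%, with 36.33% and 34.09%. All 4 were CTA, and the 14 other cytosines in the printed window were at or below 0.8425%. The 4 high sites lay as a pair on either side of cytosines near 0, within 58 bp, in both replicates.

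Cluster 5 held a pair of CTA sites on opposite strands. Position 20209 was at 35.87%, with 36.74% in replicate 1 and 35.61% in replicate 2, and position 20190 was at 14.2%, with 13.16% and 15.09%. Cluster 6 held 5 sites over 24 bp, none of them CTA. Position 21780 was at 21.12% (23.21% and 18.73%), position 21760 at 15.18% (17.17% and 13.25%) and position 21765 at 14.69% (16.36% and 13.31%). Its 2 other sites, 21775 and 21757, were at 10.04% and 7.717%. Cluster 4 held a single site above 5% with at least 100 reads, 12665, at 9.434% in 106 reads. Its window had a GC content of 7.317%. Nearby on the minus strand, 12625 was at 6.742% in 89 reads, with 9.091% in replicate 1 and 4.348% in replicate 2. On the plus strand 12626 and 12666 were at 2.41% and 4.396%, both at 0 in replicate 1.

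On C9 the levels were lower. In cluster 2 position 67031 was the highest, at 10.99% (10.32% and 11.73%), and 67028, 67037 and 67043 lay between 7.321% and 8.78%. All 4 lay on the minus strand, within a run of repeated tag triplets, where the minus strand had 615 reads and the plus strand 1278. Cluster 1 held 8 sites between 5.26% and 10.48% over 30 bp, 3 on the plus and 5 on the minus strand. Cluster 3 held 2 CTA sites at 5.026% and 5.382%.

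**Figure D2:**
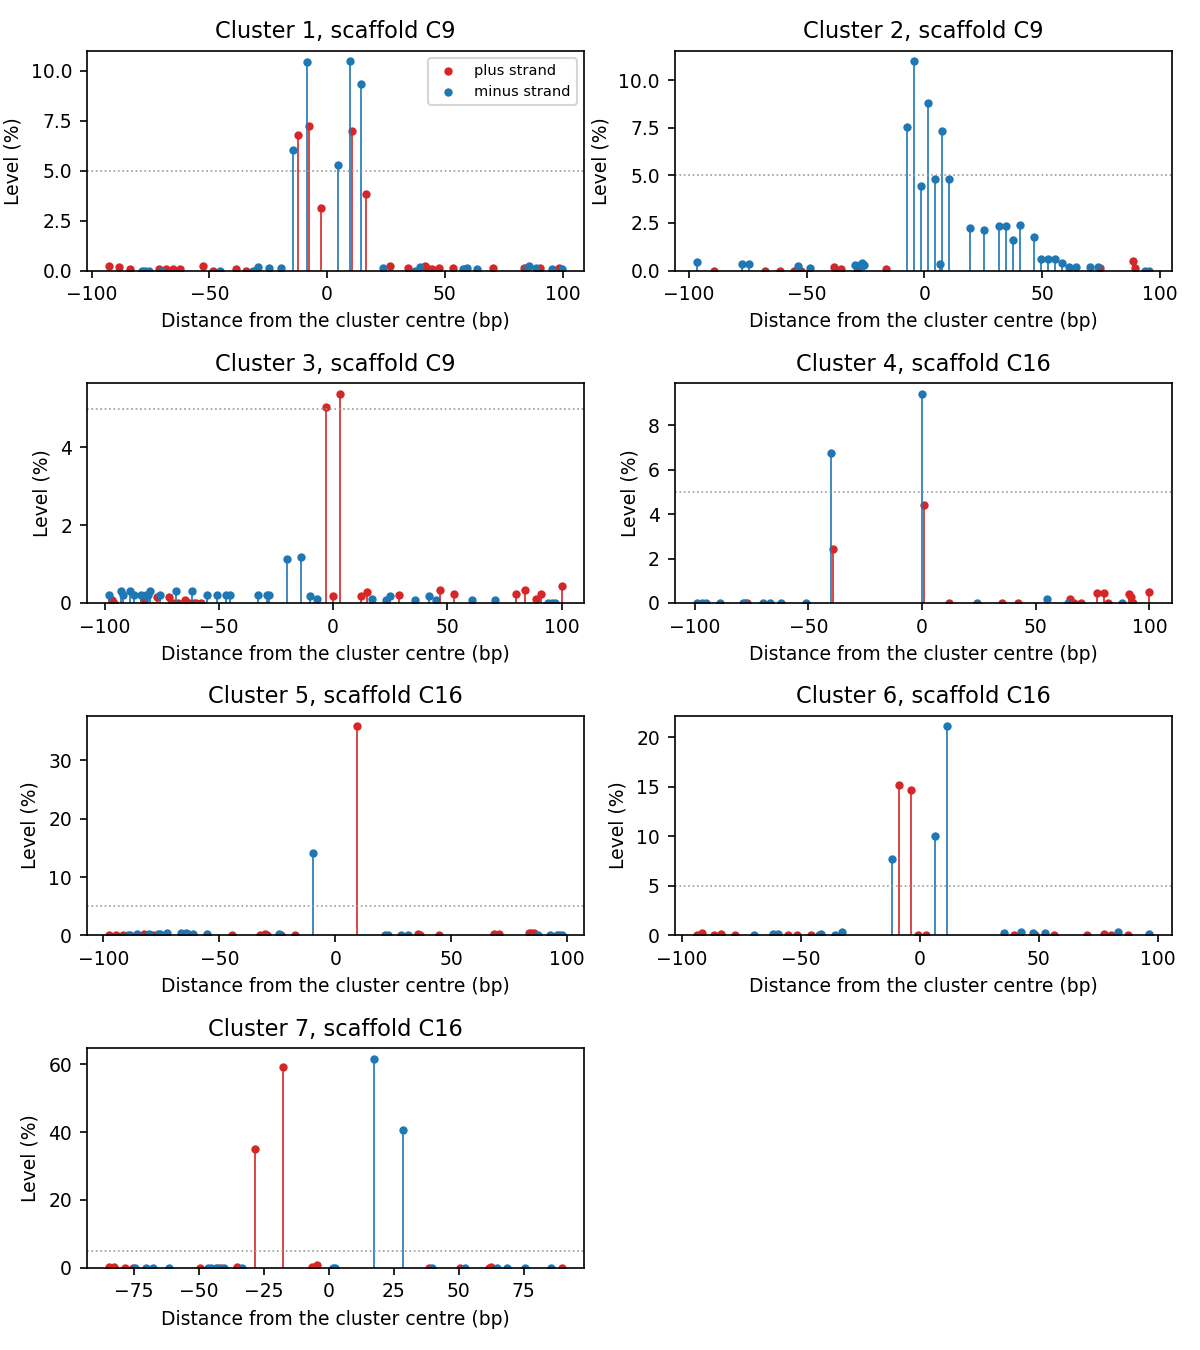
Level of each cytosine in the merged report (%, vertical axis, scaled per panel) against distance from the cluster centre in bp (horizontal axis) for the 7 clusters; red marks the plus strand, blue the minus strand and the dotted line 5%. Most neighbours of the sites above 5% are near 0, and levels reach 61.68% in cluster 7.

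**Figure D3:**
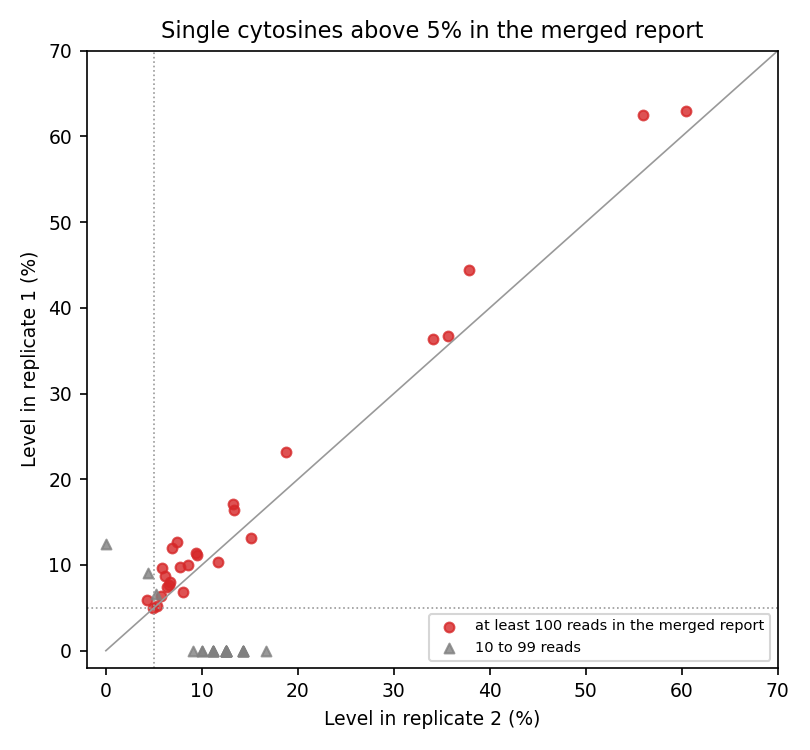
Level in replicate 1 (%, vertical axis) against replicate 2 (%, horizontal axis) at the 49 sites above 5% in the merged report; red circles have at least 100 reads, grey triangles fewer, the line marks equal levels and the dotted lines 5%. The red circles follow the line up to 63% and 60.42%, while most triangles lie at 0 in replicate 1.

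Of the 26 sites, 13 lay in paired arms, that is, inverted copies of at least 12 bases whose strands could pair across a loop. The same held for 414 of 26694 other sites (1.551%), and for 3.527% of the 8989 others within the local GC range of the 26. The rule for arms was set after the sites had been seen, and a base known only as A or T was allowed to pair with A or T, so that these shares are descriptions. The 13 sites came from clusters 1, 4 and 7 alone. Sites of a cluster share reads and arms, so they are not independent. Cluster 1 had arms of 18 bases and cluster 7 arms of 26. In the arms of cluster 7 only the Cta and taG triplets were read. Their other bases were known only to be A or T, so whether those pair is not known. In cluster 7, position 30518 paired with 30575 and 30529 with 30564, all above 5%. In cluster 1, 56879 paired with 56906, 56883 with 56902 and 56884 with 56901, also all above 5%. In all, 10 of the 13 had a partner above 5%. The exceptions were 56877, paired with 56908 at 3.852%, 56896, paired with 56889 at 3.125%, and 12665, paired with 12626 at 2.41%. Position 12665 lay in arms of 40 bases, most of them read only as A or T.

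Apart from sites above 1%, little of the pattern from site to site was seen in both replicates. Over 26183 sites with at least 100 reads in each replicate, Pearson r was 0.9523 and Spearman rho 0.05491. Without sites above 5% r was 0.3106, and without sites above 1% it was 0.08644. The median level of sites with at least 100 reads was 0.1084%. Most sites therefore held few methylated reads, and counting error limits how high r could be. Of these sites 89 were above 1% in the merged report, 60 of them in both replicates, and 82 were CHH. The variance of methylated reads over that of a binomial count at 1 common rate was 42.29 over all sites with at least 100 reads and 1.236 without sites above 1%.

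Methylated reads of neighbouring cytosines on the same strand went together. Without sites above 1%, r between 2 cytosines of the same strand was 0.6972 up to 10 bp apart, 0.5439 beyond that up to 50 bp, 0.382 up to 100 bp, 0.1944 up to 200 bp and 0.03138 up to 500 bp. On opposite strands it lay between -0.02539 and -0.00974 up to 200 bp. Reads were 100 bp paired ends, and neighbouring cytosines of a strand share reads, whereas the strands are read separately.

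**Figure D4:**
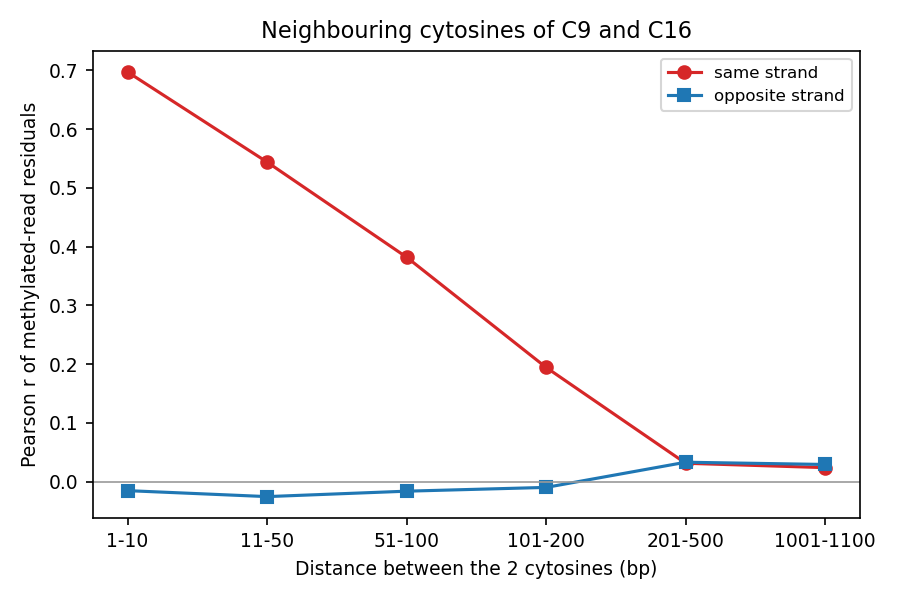
Pearson r of the deviation of methylated reads from 1 common rate (vertical axis) against the distance between 2 cytosines in bp (horizontal axis), for cytosines of the same strand (red) and of opposite strands (blue), sites with at least 100 reads and at or below 1%. Same-strand r falls with distance, 0.6972 within 10 bp and 0.03138 between 200 and 500 bp, and opposite-strand r stays near 0.

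The TE annotation of the study, as far as it was used here, placed 7 elements on C9 and 3 on C16. Transposable elements (TEs) are mobile sequences that are often methylated in plants. The unclassified family TE_00000426 accounted for C9 1-720, 720-5737, 22445-28517 and 31641-36547 and for C16 1-372. The first had no read, and C9 720-5737 and 22445-28517 had a median of 0. C9 31641-36547, with a median of 1273 reads, had a level of 0.1225% over 1568 sites (0.1125% in replicate 1 and 0.1298% in replicate 2). C9 22445-28517 showed 0.6432%, but over 128 sites, with 0.1823% in replicate 1 and 1.547% in replicate 2. Of the short elements, TE_00000060 at C9 14582-14678 had a median of 2090 reads and a level of 0.06873%. The LTR/Copia element at C9 48789-48869 had a median of 0 reads, and that at C9 70095-70200 had 190 reads and no methylated read. The LTR/Gypsy element at C16 7589-7701 was at 0.1121%, and TE_00000497 at C16 42145-42230 at 0.01353%.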

How the data were processed

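EM-seq libraries of 2 biological replicates were sequenced as 100 bp paired-end reads. The authors merged and sorted reads (SAMtools 1.9, bedtools 2.27.1, per the labels), trimmed them with Trim Galore, mapped them to the Oxford assembly with Bismark and its Bowtie2 option and removed duplicates. For every cytosine, the authors deposited raw counts: its methylated and its unmethylated reads, with no normalization, in 1 report per replicate and 1 for the merged reads. Bismark does not place reads that map equally well to several positions. Its part in the depth of repeated sequence was not tested.

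From these counts, depths, mean levels (at least 10 reads), exact binomial intervals and rate tests were computed with Python 3.11.15, NumPy 2.4.6 and SciPy 1.17.1. In single replicates, chromosome sites needed at least 5 reads. Bins with fewer than 10 cytosines were left out of depths. Repeat windows of 100 bases needed at least 10 C or G. Arms needed at least 12 bases with 2 C or G pairs and a loop of at least 4 bases, within 80 bases. On simulated data all 25 sites put in among 24828 cytosines were found, and 5.065% of 20000 draws with equal rates gave p under 0.05. Features named were the 10 highest sites above 5% shown by both replicates, the 3 deepest and shallowest bins, the 10 largest steps, all 16 trinucleotides and all annotated elements. Other sites and steps were named after their values were seen. The members and lists were chosen with earlier results of these data known. Coverage minimum, bin size, step ratio, site limit, repeat length and each replicate were varied.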

Additional observations from a re-analysis of the deposited data

How the results depend on the processing

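Of 89 alternatives, 68 were labelled as the same, 19 as moved and 2 as reversed. The 68 include changes in size. A CG level of 0.1449% against 0.1325% was labelled as the same, at a replicate SD of 0.01324. A CHH level of 0.1692% against 0.1673% was labelled as moved, at a replicate SD of 0.001863. The labels thus do not rank changes by size. Without sites above 5% the ratio of C9 to C16 went from 0.8202 to 0.9127. The CHH ratio to unmethylated chromosome bins then went from 1.47 to 1.294. The 56 single sites without replicate 1 were also labelled as the same. The 2 reversals, chosen after seeing the data, used CHH sites only for C9 and C16 against C7: the merged ratio was 1.229, or 1.081 without the single sites above 5%, against 0.2302 over all contexts. Pooling reads gave 0.1117% (CG), 0.1152% (CHG) and 0.1458% (CHH). The CHH level was 0.1692% with at least 5 reads, 0.1652% with 20 and 0.1624% with 100. It was 0.1411% without sites above 5%, 0.184% without bins under 0.5 or over 1.5 times the scaffold median depth, 0.1526% on C9 alone, 0.1859% on C16 alone and 0.1642% outside repeated stretches (chosen after seeing the data). Leaving out a replicate gave 0.116% to 0.1347% for CG and 0.1639% to 0.1665% for CHH. The number of single sites was 111 above 2%, 13 above 10%, 28 with at least 20 reads and 26 with at least 100, and 32 to 56 with 1 replicate left out. Of the 32 in replicate 1 alone, 28 were among the 49, and so were 28 of the 56 in replicate 2 alone. Requiring 100 reads on 1 side left 10 depth steps of 17. The cause of the moves was not tested. The samples form a single group, with no second group to pair by replicate number. Comparisons made within the libraries had both sides in each replicate. With 2 replicates their smallest two-sided exact permutation p is 0.5, so no paired test was run. Comparisons within the libraries are given for each replicate in place of a block. Depth limits the sites under 100 reads, where 1 methylated read can pass 5%.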
